A study of Mus musculus with 8 samples.

Results

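Tight junction genes of barriers and of myelin were followed in mouse trigeminal ganglia that carry a daDREAM transgene. The 9 genes are Cldn1, Cldn5, Cldn11, Cldn12, Cldn19, Cldn34c1, Ocln, Tjp1 and Jam3. They were chosen by symbol, and every probe set that the platform annotation gives to one of these symbols alone was used. All 9 had a probe set. Together they held 16 of the 45037 probe sets tested, and 9 of the 18193 genes tested. A probe set is a group of short array oligos that report on one transcript. Where a gene had several, the one with the highest mean over the arrays represented it.

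Neurons that sense touch, heat and pain in the face have their cell bodies in the trigeminal ganglion, beside satellite glia, Schwann cells, blood vessels and a sheath. RNA from ganglia was read on 8 Affymetrix Mouse Genome 430 2.0 arrays. The 4 control arrays came from adult male C57B/6XCBA mice, and the 4 daDREAM arrays from transgenic mice of the same background, with the tag tg16 in their titles. DREAM is a repressor of transcription that lets go of DNA when it binds calcium, and the da form is a mutant made to keep repressing. The sources used here do not give the promoter that drives the transgene or say whether tg16 is 1 line. Values are RMA log2 expression values, in which a difference of 1 is a 2-fold change, and differences are daDREAM minus control.

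Tight junctions seal the gap between neighbouring cells. Claudins and occludin span the membrane and form the seal, JAM proteins are adhesion molecules beside it, and ZO-1, the product of Tjp1, ties the strands to the actin cytoskeleton. In nerve tissue these junctions close the endothelium of vessels, where claudin-5 dominates, and the perineurial sheath, where claudin-1 is found. Myelinating cells also form junctions within their own wraps, with claudin-11 in oligodendrocytes and claudin-19 in Schwann cells.

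The markers of sensory neurons were bright on every array, with Prph between 12.89 and 13.09, Avil between 12.06 and 12.36, Scn10a between 8.68 and 9.07 and Trpv1 between 9.02 and 9.55. Some arrays stood apart in other ways. Xist, which female cells express, read 10.20 on control replicate 3, 11.72 on control replicate 4 and 11.51 on daDREAM replicate 4, and 6.10 to 6.49 on the others, although all animals were labelled male. The Y-linked gene Eif2s3y read 8.40, 7.16 and 4.46 on those 3 arrays and 8.74 to 9.04 on the rest. Ribosomal 18S signal was highest on control replicates 1 and 4 (9.41 and 10.65, against 7.71 to 8.11). Pituitary Gh was highest on control replicate 3 and daDREAM replicates 3 and 4 (11.15, 12.50 and 13.43, against 9.04 to 10.66). Muscle Acta1 was highest on control replicates 1 and 3 (9.20 and 9.40, against 6.60 to 7.07). For the 9 genes and for Aqp4, Igfbp2 and Magi1, calls lost without these arrays are given with the value without them.

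Of the 9 genes, 3 passed the test (limma, adjusted p under 0.05 over all genes). Cldn5 was higher in daDREAM ganglia, Cldn34c1 and Cldn1 were lower, and the other 6 did not pass. Over all genes 2.00% passed, 0.984% higher and 1.02% lower in daDREAM ganglia. The genes were chosen with earlier results of these data known, and Cldn34c1 was already among those results, so nothing is read from the share of 3 in 9. Groups did not overlap in these 3 genes, as in 10.7% of all genes, and 4 of the 9 had an unadjusted p under 0.05, as in 18.2% of all genes. The median difference was -0.02 over the 9 genes and 0 over all genes, with 3 of the 9 differences above 0 against 50.5% of all. Of the 16 probe sets, 4 passed over probe sets, 1 higher and 3 lower, where 2.74% of all probe sets passed, 1.42% higher and 1.32% lower. Groups did not overlap in 6 of the 16, against 11.3% of all probe sets with a single symbol. The 3 genes past the test became 1, Cldn34c1, without the arrays with a female signal, and likewise without those with the most 18S, the most Gh or the most Acta1.

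**Figure D1:**
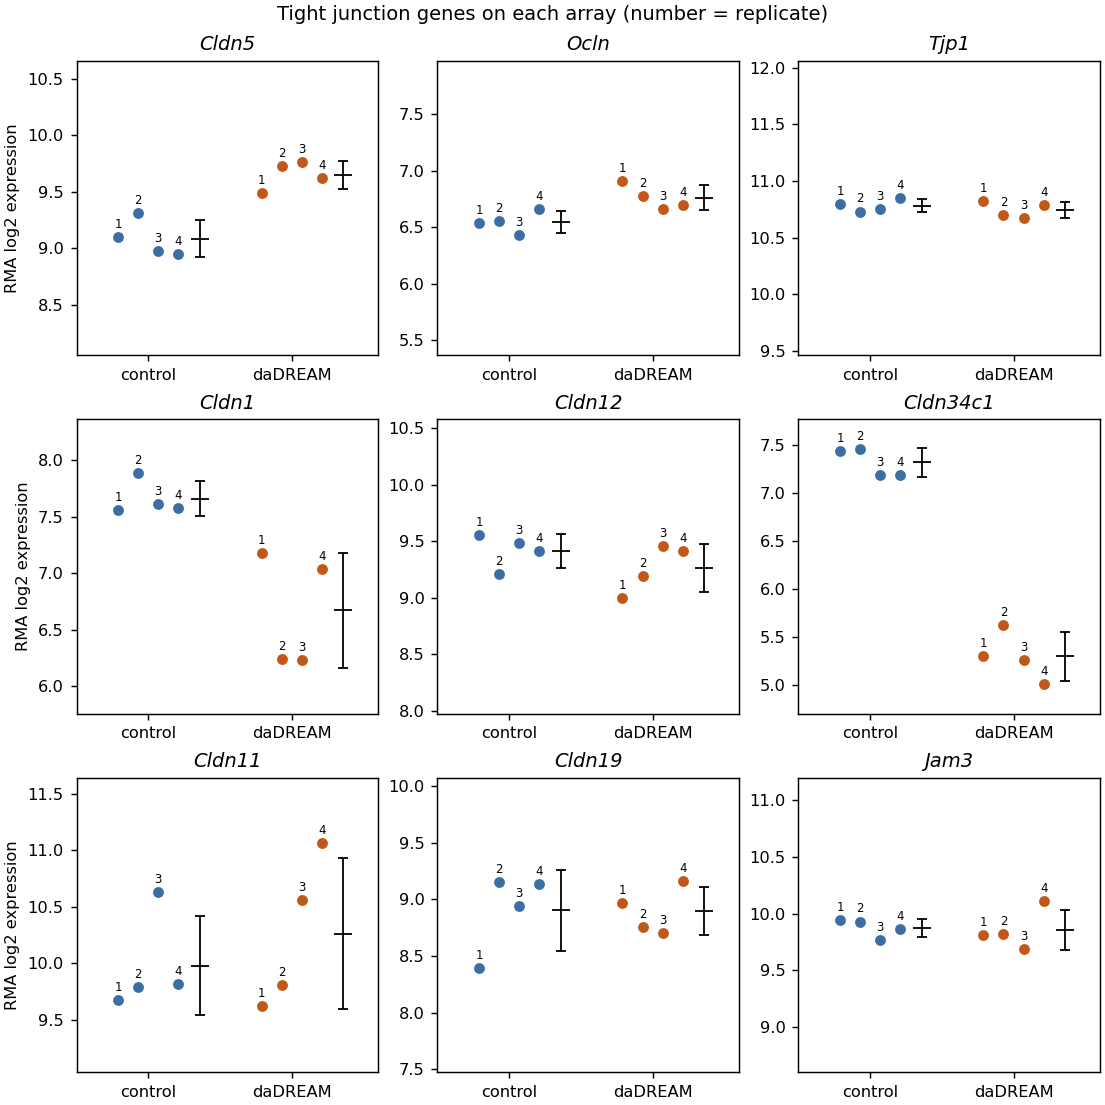
RMA log2 expression of the 9 tight junction genes by group, each at its brightest probe set; each point is 1 array with its replicate number, and the bar gives the mean and SD of 4 arrays. Each panel has its own vertical range, and probe sets differ in brightness, so levels are not comparable between genes. Cldn34c1 lies between 7.19 and 7.46 in control and between 5.01 and 5.63 in daDREAM ganglia, and Cldn5 is the one gene whose daDREAM points all lie above the control points.

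DREAM is known to bind DNA elements with the core letters GTCA. The 250 bases before the gene start are therefore shown for the 3 genes that passed, from RefSeq on GRCm38.p6, 5′ to 3′ along the gene's strand. Capitals mark GTCA or its reverse complement TGAC. The Cldn34c1 stretch is chrX:123103273-123103522, plus strand, the Cldn5 stretch chr16:18776597-18776846, plus strand, and the Cldn1 stretch chr16:26371840-26372089, minus strand.
Cldn34c1: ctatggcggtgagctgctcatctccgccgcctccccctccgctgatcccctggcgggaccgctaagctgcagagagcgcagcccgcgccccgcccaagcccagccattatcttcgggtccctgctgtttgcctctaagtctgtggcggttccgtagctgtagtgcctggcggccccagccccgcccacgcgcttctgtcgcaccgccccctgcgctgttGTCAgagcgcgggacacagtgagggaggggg
Cldn5: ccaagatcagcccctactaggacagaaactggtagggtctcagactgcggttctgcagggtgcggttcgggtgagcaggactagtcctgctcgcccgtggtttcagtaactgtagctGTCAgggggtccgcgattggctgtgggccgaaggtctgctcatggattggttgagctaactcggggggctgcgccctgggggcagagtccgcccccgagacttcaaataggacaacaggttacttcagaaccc
Cldn1: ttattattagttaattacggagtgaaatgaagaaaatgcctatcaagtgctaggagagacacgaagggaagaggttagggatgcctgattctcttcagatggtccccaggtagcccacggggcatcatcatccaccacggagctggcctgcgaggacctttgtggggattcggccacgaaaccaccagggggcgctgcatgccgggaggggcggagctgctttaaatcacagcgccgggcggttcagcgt
The core appeared 1 time for Cldn34c1, its first base at position -31, and 1 time for Cldn5, at position -133, counted from the gene start. It was not in the Cldn1 stretch. The letters are common: of 32851 RefSeq windows of 300 bases, 250 before and 50 after a start, 85.2% held GTCA on either strand, with a median of 2 matches. All of the 9 genes but Jam3 had such windows, 12 in all, and these held 0 to 3 matches each. A match is a description of the sequence, and whether DREAM binds at any of them was not measured.

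Cldn34c1 showed the largest difference among the 9 genes. It is 1 of several claudin 34 copies on chromosome X, and its older name is 3110007F17Rik. On the probe set that represents it, 1439279_at, the control arrays read 7.44, 7.46, 7.19 and 7.19 and the daDREAM arrays 5.30, 5.63, 5.26 and 5.01. All daDREAM values lay below all control values, and the gap between the groups was wider than the range within either. Means were 7.32 ± 0.15 and 5.30 ± 0.25 (SD, n = 4 each), a difference of -2.02 (SE 0.12, 95% interval -2.29 to -1.75, limma adjusted p = 3.58e-06 over genes). That is 4.06-fold lower, and since the daDREAM mean lay under 6, a level taken here as near background, the fold is at best a lower bound.

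A second Cldn34c1 probe set, 1452640_at, moved the same way at a dimmer level. It read 5.36, 4.95, 5.0 and 5.16 on control arrays and 4.32, 4.47, 4.32 and 4.32 on daDREAM arrays, again with no overlap, although both groups lay below 6. The difference was -0.76 (SE 0.10, adjusted p = 9.13e-04 over probe sets, and 0.0518 without the arrays with the most Gh). The relatives Cldn34c4, Cldn34d and Cldn34b2 had probe sets of their own and read from 3.92 to 4.64 on all arrays, with differences of -0.10, 0.04 and -0.02 that did not pass. The copies resemble each other, so the signal cannot be assigned to Cldn34c1 with certainty. Cldn34c1 passed in each of the 18 alternatives run, with differences from -2.13 to -1.39 and adjusted p from 1.13e-06 to 6.52e-04 over genes. It also passed without the arrays with a female signal, where the difference was -2.05 (adjusted p = 2.28e-04).

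Cldn5, the main claudin of endothelium and of the blood-brain barrier, was higher in daDREAM ganglia. Its only probe set read 9.10, 9.31, 8.98 and 8.95 on control arrays and 9.49, 9.73, 9.76 and 9.62 on daDREAM arrays. The lowest daDREAM array stood above the highest control array. Means were 9.09 ± 0.16 and 9.65 ± 0.12 (SD, n = 4 each), a difference of 0.565 (SE 0.10, 95% interval 0.35 to 0.78, limma adjusted p = 0.00976 over genes), or 1.48-fold. With each array left out in turn the difference stayed between 0.52 and 0.64 and passed each time (adjusted p from 0.00543 to 0.0441). It kept its direction but did not pass without the arrays with a female signal (0.455, adjusted p = 0.132), without those with the most 18S (0.505, adjusted p = 0.102), the most Gh (0.49, adjusted p = 0.241) or the most Acta1 (0.52, adjusted p = 0.123), which leave 5 or 6 arrays.

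Other endothelial genes did not pass beside it. Of 21 measured vessel and barrier markers 0 passed (limma), and 5 had an unadjusted p under 0.05, against 18.2% of all genes. For these markers 11 differences lay above 0 and 10 below, and the median was 0.04. The log2 of their summed signal ran from 13.33 to 13.39 in control and from 13.26 to 13.41 in daDREAM ganglia. Slco1c1, a thyroid hormone carrier of brain vessels and astrocytes, had the smallest p. It read 7.86 to 8.73 in control and 8.86 to 9.24 in daDREAM ganglia, a difference of 0.64 (limma adjusted p = 0.0873). The adhesion molecule Pecam1 read 0.27 (adjusted p = 0.144), VE-cadherin (Cdh5) -0.09 and the VEGF receptor Kdr -0.04, these 3 chosen after their values were seen.

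All 12 differences of astrocyte and hindbrain markers lay above 0, against 50.5% of all genes, with a median of 0.60. In limma 1 of these markers passed and 11 did not. That 1 was the water channel Aqp4, at 0.755 (adjusted p = 0.0173), and it did not pass without the arrays with the most 18S (0.655, adjusted p = 0.175) or without control replicate 1, daDREAM replicate 3 or daDREAM replicate 4 (adjusted p = 0.0568, 0.0656 and 0.0550). Among the 12 markers, 8 had an unadjusted p under 0.05 (limma), against 18.2% of all genes. Groups did not overlap in 3 of the 12, against 10.7% of all genes. Gfap had the largest difference, 1.585, and did not pass (limma adjusted p = 0.0660). It read 8.29 to 10.22 in control and 10.77 to 11.24 in daDREAM ganglia. The summed signal of the 12 ran from 12.49 to 13.44 in control and from 13.43 to 13.94 in daDREAM ganglia. Which cells gave these signals, and their part in the Cldn5 difference, was not tested. In bulk ganglia, more cells of a type and more RNA per cell cannot be told apart.

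Ocln, the gene of occludin, gave differences above 0 on both of its probe sets, and neither passed. The brighter, 1440220_at, read 6.54, 6.56, 6.43 and 6.66 in control and 6.91, 6.78, 6.66 and 6.70 in daDREAM ganglia. The groups met at 6.66, and the difference was 0.215 (95% interval 0.04 to 0.39, limma adjusted p = 0.202 over genes). The other, 1448873_at, read 6.33, 6.28, 6.04 and 6.02 in control and 6.73, 6.59, 6.64 and 6.35 in daDREAM ganglia. Here the groups did not overlap, and the difference was 0.41 (SE 0.10, adjusted p = 0.0625 over probe sets). Without daDREAM replicate 4 it passed, at 0.49 (adjusted p = 0.0325).

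Tjp1, the scaffold beneath these strands, was nearly level across arrays. It read from 10.73 to 10.85 in control and from 10.67 to 10.82 in daDREAM ganglia. The groups overlapped, with means of 10.78 ± 0.05 and 10.75 ± 0.07 (SD, n = 4 each). The difference was -0.04 (SE 0.07, adjusted p = 0.807 over genes), and its 95% interval of -0.19 to 0.11 was the narrowest of the 9 genes.

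Cldn1, the claudin of the perineurium and of epithelia, was lower in daDREAM ganglia. The probe set that represents it, 1437932_a_at, read 7.56, 7.89, 7.61 and 7.58 on control arrays and 7.18, 6.24, 6.23 and 7.04 on daDREAM arrays. Every daDREAM array lay below every control array, and the daDREAM arrays fell into a higher pair, replicates 1 and 4, and a lower pair, replicates 2 and 3. Means were 7.66 ± 0.15 and 6.67 ± 0.51 (SD, n = 4 each), a difference of -0.99 (SE 0.20, 95% interval -1.43 to -0.54, limma adjusted p = 0.0301 over genes), or 1.98-fold.

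The next brightest Cldn1 probe set, 1450014_at, kept the same order among the daDREAM arrays. It read 5.95, 6.41, 5.89 and 6.33 in control and 6.01, 5.53, 5.39 and 5.82 in daDREAM ganglia, where replicate 1 overlapped with control. The difference was -0.46 and did not pass (adjusted p = 0.145 over probe sets). The other Cldn1 probe sets, 1438851_x_at and 1438850_at, lay between 3.56 and 4.07 on every array, near background, with differences of -0.17 and 0.06.

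The Cldn1 call was close to the threshold. It was lost without control replicate 1, 2, 3 or 4 (adjusted p = 0.0739, 0.0709, 0.0589 and 0.0595) and without daDREAM replicate 2 or 3 (adjusted p = 0.0931 and 0.0862). It was also lost with the mean of its probe sets (-0.39, adjusted p = 0.0638), and without the arrays with a female signal (-1.18, adjusted p = 0.108) or with the most 18S, Gh or Acta1 (adjusted p = 0.158, 0.196 and 0.147). Differences kept their direction in all 18 alternatives, and lay between -1.16 and -0.84 with each array left out in turn.

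Of 16 markers of meninges and perineurium, 1 passed, Igfbp2, which encodes a binding protein of insulin-like growth factors. It was higher by 0.71 (limma adjusted p = 0.00917, and 0.0518, 0.0671, 0.115 and 0.0529 without the arrays with a female signal, the most 18S, Gh or Acta1). Its difference lay between 0.53 and 0.80 in the 18 alternatives. An unadjusted p under 0.05 (limma) was found for 8 of the 16, against 18.2% of all genes. The median of the list was 0.08, with 10 differences above 0 and 6 below. Single differences went both ways, from -0.50 for Dcn (limma adjusted p = 0.0718) to 1.01 for Zic1 (adjusted p = 0.140). Zic1 is also counted among the astrocyte and hindbrain markers. Groups did not overlap in 2 of the 16, Igfbp2 and Dcn, against 10.7% of all genes. The list's summed signal ran from 15.00 to 15.26 in control and from 14.96 to 15.39 in daDREAM ganglia. Muscle markers lay below 0 in 9 of 9, where 50.5% of all genes lay above 0, with a median of -0.68. In limma 0 of them passed, and 6 had an unadjusted p under 0.05, against 18.2% of all genes. The summed signal of the muscle markers was high on control replicates 1 and 3 alone (11.49 and 11.48, against 9.62 to 9.82 on the other arrays of both groups). Cldn1 read 7.56 and 7.61 on those arrays, and 7.89 and 7.58 on control replicates 2 and 4. Without control replicates 1 and 3, the arrays with the most Acta1, the Cldn1 difference was -1.06 (limma adjusted p = 0.147). The part of muscle tissue in the Cldn1 difference was not tested.

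Cldn12, a claudin without the usual tail that binds ZO-1, did not pass, and its probe sets differed in sign. The brighter read 9.55, 9.21, 9.48 and 9.41 in control and 9.0, 9.19, 9.46 and 9.41 in daDREAM ganglia. The groups overlapped, with a difference of -0.15 (95% interval -0.39 to 0.10, limma adjusted p = 0.502 over genes). The dimmer read 7.71 to 8.05 and 7.95 to 8.15, a difference of 0.11 (adjusted p = 0.536 over probe sets).

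**Figure D2:**
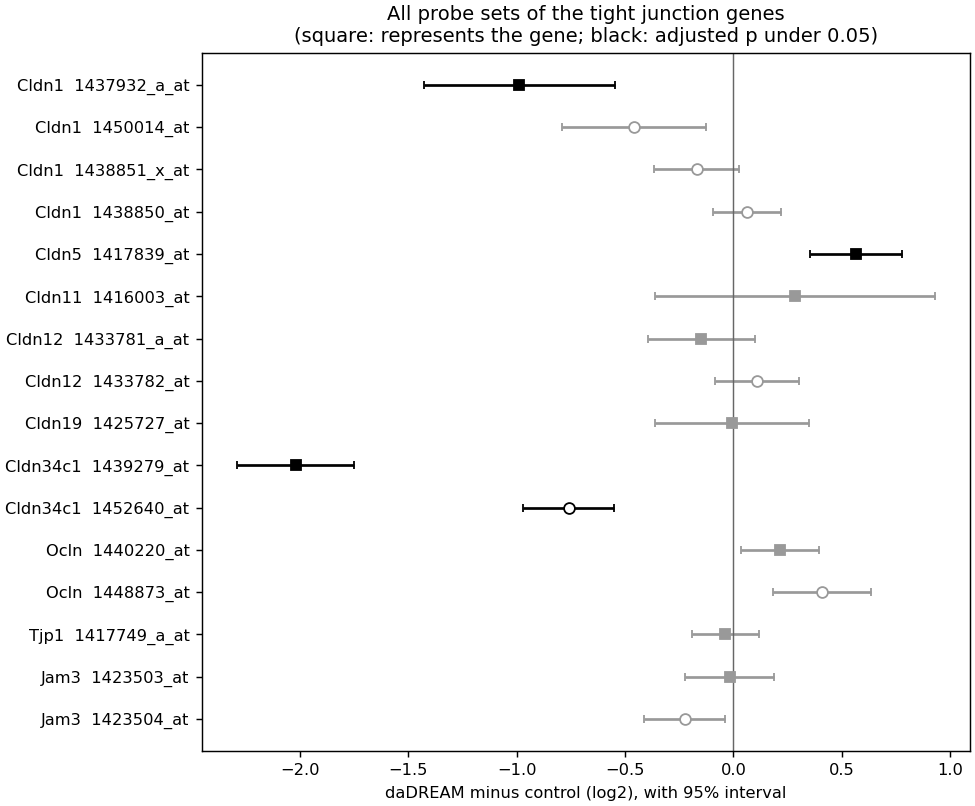
Difference between daDREAM and control arrays on the log2 scale for all 16 probe sets of the 9 genes, with 95% intervals from limma over probe sets; squares represent the gene, and black marks an adjusted p under 0.05. Both Cldn34c1 probe sets lie left of 0 (-2.02 and -0.76), both Ocln ones right of it (0.215 and 0.41), and those of Cldn1 run from -0.99 to 0.06.

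Cldn11, which encodes the claudin of oligodendrocyte myelin, had the widest spread within groups of the 9 genes. Its only probe set read 9.68, 9.79, 10.63 and 9.82 in control and 9.62, 9.81, 10.56 and 11.06 in daDREAM ganglia. High arrays stood in both groups: control replicate 3 and daDREAM replicates 3 and 4 read 10.56 or more, and the others 9.82 or less. Means were 9.98 ± 0.44 and 10.26 ± 0.67 (SD, n = 4 each), a difference of 0.28 (SE 0.30, 95% interval -0.37 to 0.94, limma adjusted p = 0.640 over genes).

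The arrays with the most Cldn11 were those with the most Gh. Without them the Cldn11 difference was -0.05 (limma adjusted p = 0.868). These arrays are the highest in Cldn11 itself, and more of them are daDREAM than control. Leaving them out therefore lowers the difference whatever their Gh, so the value does not bear on Gh. Mog, an oligodendrocyte surface protein, was also highest on control replicate 3 and daDREAM replicates 3 and 4. It read 9.32, 9.62 and 9.95 there, against 8.29 to 8.98 on the others. Mog was among the 3 genes closest to Cldn11 in a search over all arrays, so its match is not independent. Of 14 oligodendrocyte markers 13 differences lay above 0, against 50.5% of all genes, with a median of 0.35. In limma 0 of these markers passed, and 4 had an unadjusted p under 0.05, against 18.2% of all genes. Hapln2, a link protein of the node matrix, had the smallest p, at 0.61 (adjusted p = 0.0978). The log2 of the summed signal of these markers was 14.09 to 14.26 on control replicate 3 and daDREAM replicates 2, 3 and 4, and 13.42 to 13.59 on the others, so daDREAM replicate 2 was high in the markers and not in Cldn11. The summed pituitary signal was 12.69 to 14.19 on the arrays with the most Gh and 10.02 to 11.26 on the others. The part of brain or pituitary tissue in the spread of Cldn11 was not tested.

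**Figure D3:**
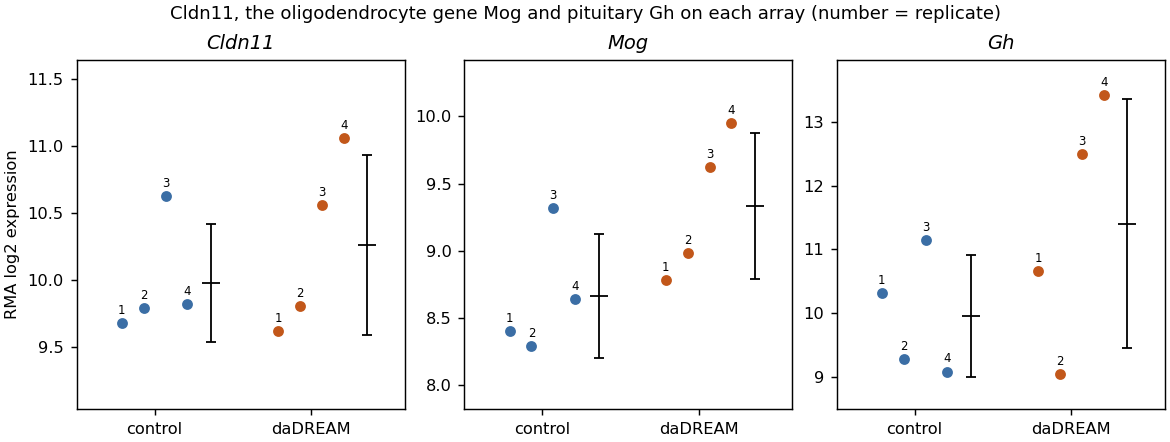
RMA log2 expression of Cldn11, of the oligodendrocyte gene Mog and of the pituitary hormone gene Gh on each array, by group; points carry the replicate number, and bars give the mean and SD of 4 arrays. In each panel control replicate 3 and daDREAM replicates 3 and 4 are the highest arrays, with Cldn11 between 10.56 and 11.06. Mog was among the genes closest to Cldn11 over these arrays, so its match is not independent.

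Cldn19, whose protein forms the junctions within Schwann cell myelin, showed almost equal means. It read 8.39, 9.15, 8.94 and 9.14 in control and 8.97, 8.76, 8.70 and 9.16 in daDREAM ganglia. Control replicate 1 was the lowest array, and the groups overlapped. Means were 8.91 ± 0.36 and 8.90 ± 0.21 (SD, n = 4 each), a difference of -0.01 whose 95% interval of -0.36 to 0.35 leaves room for changes either way (limma adjusted p = 0.987 over genes). The sign of this difference turned in 7 of the 18 alternatives.

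Jam3, the adhesion molecule JAM-C found at junctions of Schwann cells and vessels, did not pass on either probe set. The brighter read 9.94, 9.93, 9.77 and 9.86 in control and 9.81, 9.82, 9.69 and 10.11 in daDREAM ganglia, with daDREAM replicate 4 the highest array. The difference was -0.02 (95% interval -0.22 to 0.19, adjusted p = 0.940 over genes). The dimmer read 7.46, 7.33, 7.35 and 7.59 in control and 7.27, 7.09, 7.15 and 7.32 in daDREAM ganglia. Here the groups did not overlap, since the highest daDREAM array, 7.32, lay just below the lowest control array, 7.33. Its difference was -0.225 (adjusted p = 0.194 over probe sets).

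Of 17 markers of Schwann cells and myelin 0 passed (limma, 3 at an unadjusted p under 0.05, against 18.2% of all genes). The median of these markers was 0.05. Their differences ran from -0.41 to 0.71, with 10 above 0 and 7 below. Nfasc, the adhesion molecule neurofascin, had the smallest p, at 0.33 (adjusted p = 0.0873). Gjb1 and Egr2, which also had an unadjusted p under 0.05, differed by 0.545 and -0.41 (limma adjusted p = 0.160 and 0.218). Pmp22 and Mbp, major myelin proteins named after their values were seen, differed by -0.17 and 0.06 from bright control means of 14.28 and 14.56. The summed signal of the list was highest on daDREAM replicate 4 (16.88, against 16.42 to 16.71), the array on which the brighter Jam3 probe set was highest as well. Some further genes of this list were not analysed here.

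Other genes with a Cldn symbol, counted here as other claudins and including Cldnd1 and Cldnd2, did not pass. Of 20 other genes with a Cldn symbol 0 passed (limma, 5 at an unadjusted p under 0.05, against 18.2% of all genes). Of their differences 8 lay above 0 and 12 below, and the median was -0.04. Cldn10, a claudin of pores for ions, had the smallest p and read 7.46 to 8.18 in control and 7.94 to 8.73 in daDREAM ganglia, a difference of 0.54 (adjusted p = 0.178). In 8 of the 20 both group means lay below 6, near background.

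Among 34 measured partners of the junction (polarity proteins, further adhesion molecules and scaffolds) 1 passed and 33 did not. The median was 0.07, with 25 differences above 0, against 50.5% of all genes. An unadjusted p under 0.05 (limma) was found for 9 of the 34, against 18.2% of all genes. Groups did not overlap in 7 of the 34, against 10.7% of all genes. Magi1, a scaffold that joins junction proteins, was higher by 0.58 at its brightest probe set, 1440071_at (9.13 to 9.36 in control, 9.77 to 9.94 in daDREAM ganglia, limma adjusted p = 0.00188 over genes). It did not pass without the arrays with the most Gh (0.61, adjusted p = 0.0860). The differences of its 4 other probe sets lay below 0. They were -0.77 at 1427246_at and -0.71 at 1440871_at, which passed (adjusted p = 4.53e-04 and 6.66e-04 over probe sets), and -0.40 at 1452369_at and -0.02 at 1451893_s_at, which did not (adjusted p = 0.0532 and 0.934). The mean of all its probe sets gave -0.26 (adjusted p = 0.0521 over genes), so no single direction can be given for Magi1. Some further partners were not analysed here.

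**Figure D4:**
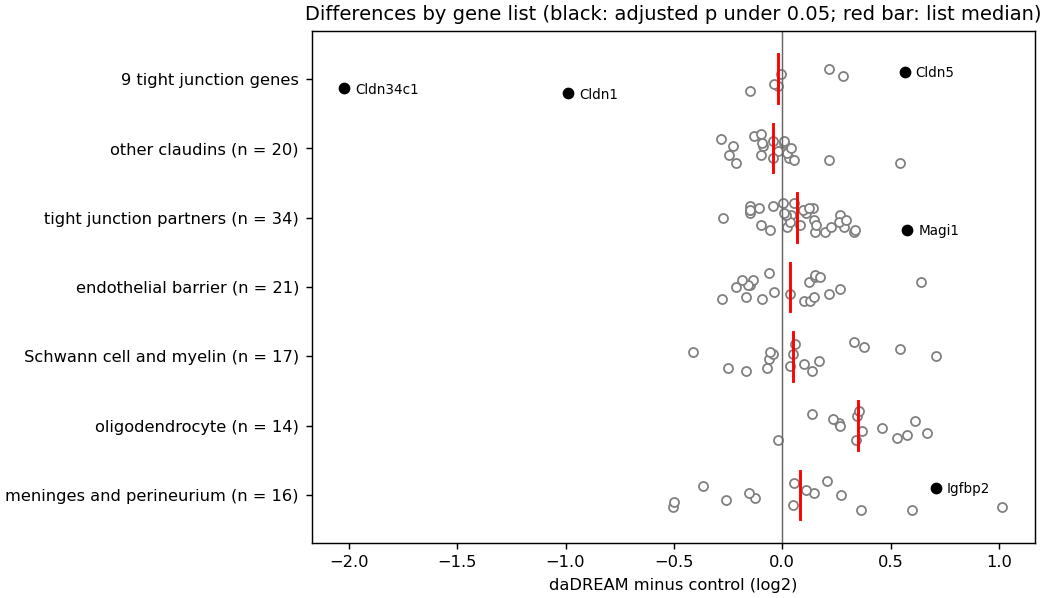
Difference between daDREAM and control arrays on the log2 scale for each measured gene of 7 lists (the 9 genes, other claudins, junction partners, endothelial barrier, Schwann cell and myelin, oligodendrocyte, and meninges and perineurium), 1 point per gene at its brightest probe set; black points have a limma adjusted p under 0.05 over genes, and the red bar is the list's median. Cldn34c1 and Cldn1 lie at -2.02 and -0.99, Cldn5 at 0.565, and the median of the oligodendrocyte list at 0.35.

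Arrays within a group also varied, and the 3 genes with the most similar variation were listed for some members. Likeness was measured as Pearson's r over the 8 arrays after subtracting each group's mean. The search covered the 14643 genes with a mean of at least 6. With so few arrays and so many genes searched, high values of r arise by chance, and no chance level was computed. The lists describe these arrays only and name no partners. Closest to Cldn11 were Slco3a1 (r = 0.979), Tcp11l2 (0.976) and Mog (0.976). Closest to Cldn5 were Podxl (0.950), Tars2 (0.947) and Slc7a8 (0.944), and of these Slc7a8 was itself lower in daDREAM ganglia (-0.49, limma adjusted p = 0.00583). Closest to Cldn1 were Cbx1 (0.973), Myl12a (0.972) and Cald1 (0.971), to Cldn19 Hand2 (0.980), Mmp14 (0.979) and Fbln2 (0.979), and to Cldn34c1 Haghl (0.984), Rps24 (0.977) and Cir1 (0.971).

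**Figure D5:**
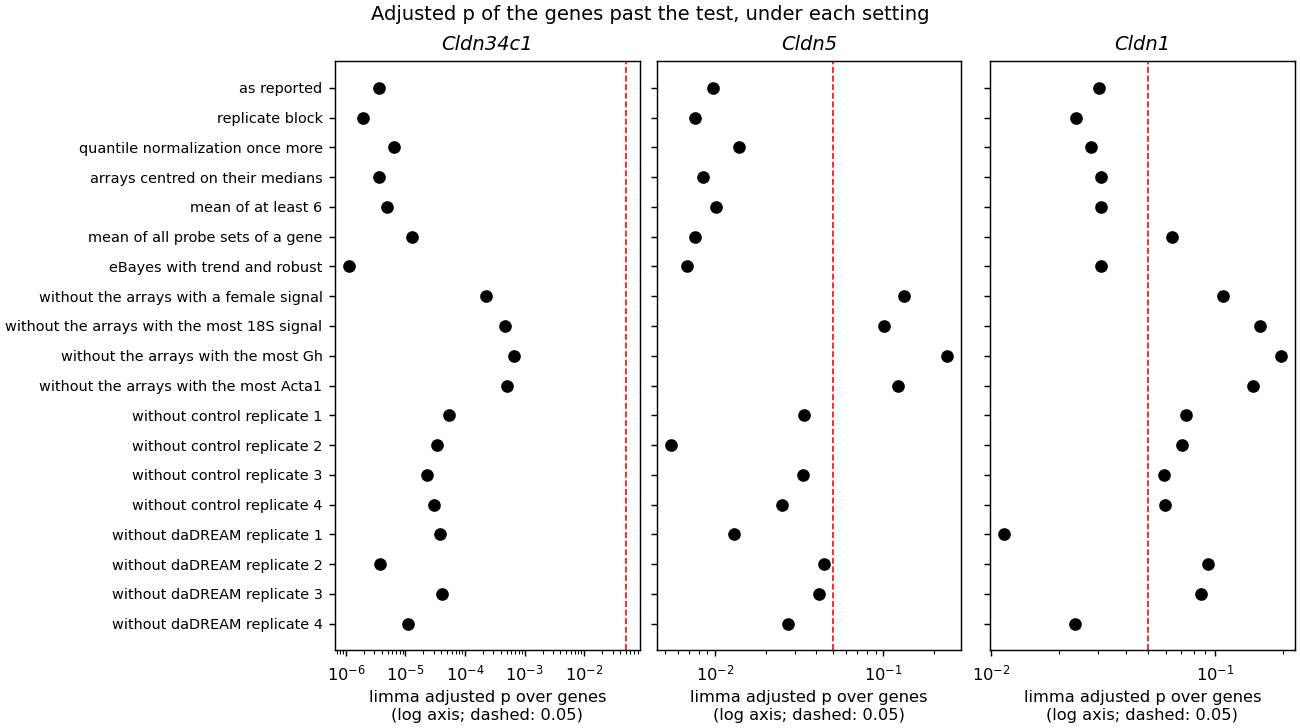
Adjusted p over genes from limma for Cldn34c1, Cldn5 and Cldn1, as reported and under each of 18 alternatives, on a log axis with the threshold of 0.05 dashed. Cldn34c1 stays at or below 6.52e-04, Cldn5 reaches 0.241 and Cldn1 0.196.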

How the data were processed

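The authors deposited 1 log2 value for each probe set and array. Per the submitters' processing notes these come from RMA (package affy), which corrects background, equalizes the arrays' distributions and summarises each probe set; a shift common to most genes is lost. The sources used here name no versions or genome build. Array medians lay between 7.09 and 7.13, correlations between arrays from 0.983 to 0.996, and no arrays were identical. The number of arrays limits the precision.

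Of 45101 probe sets, 64 Affymetrix controls were left out; platform annotation gave 34945 a single symbol. Two-sided tests used limma 3.58.1 (lmFit, eBayes, group only; R 4.3.3) over all genes or probe sets, with Benjamini-Hochberg adjustment and a threshold of 0.05; the script was tested on simulated data. The labels call arrays of a group biological replicates, and whether animals were pooled is not given, so p-values measure only the spread among these arrays.

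Members and lists were chosen with earlier results of these data known. Named genes are the 9 members, in each list the genes that passed (up to 4) or the one with the smallest p, and markers checking tissue and arrays. Others were named outside this rule. Pecam1, Cdh5, Kdr, Pmp22 and Mbp were named after their values were seen, as were Gjb1, Egr2, Dcn and Zic1. Mog was among the genes closest to Cldn11 over the arrays. Alternatives were a block for the replicate number, normalization, centring, a filter on means below 6, the mean of a gene's probe sets, another variance prior, each array left out, and leaving out arrays high in Xist, 18S, Gh or Acta1. Promoter sequences are RefSeq's, GRCm38.p6. Figures used matplotlib 3.10.9.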

Additional observations from a re-analysis of the deposited data

Results flagged for a closer look

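In 4 of 32 groups of 4 arrays, taken over the 16 probe sets, 1 array lay far from the others by Dixon's ratio (the gap to the nearest array over the group's range, against Dixon's critical value for 4 values). Chance gives about 1 in 20. For Cldn11, control replicate 3 read 10.63 against 9.82 for the next array (ratio 0.853). For Cldn1 (1437932_a_at), control replicate 2 read 7.89 against 7.61 (ratio 0.849). For the dimmer Cldn12 probe set, daDREAM replicate 3 read 8.15 against 7.98 (ratio 0.85). For the dimmer Cldn34c1 probe set, daDREAM replicate 2 read 4.47 against 4.32 on the 3 others (ratio 1), a step near background.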

How the results depend on the processing

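Of 162 recomputed differences of the 9 genes, 134 kept their direction and side of the threshold, 15 no longer passed (Cldn1 and Cldn5) and 13 changed sign, all in genes that had not passed. Without the arrays with a female signal, the most 18S, Gh or Acta1, 1, 1, 1 and 1 of the 9 genes passed, and 2, 2, 1 and 2 probe sets. With each array left out, 2 to 3 genes and 3 to 5 probe sets passed. Over all genes the count of 364 became 213, 227, 98 and 171 without those arrays and 229 to 349 with each array left out; fewer arrays were fitted. Meninges and perineurium markers past the test were 0, 0, 0 and 0 without those arrays and 1 to 2 with each left out, Schwann cell markers 0 to 1 and oligodendrocyte markers 0 to 2. Partners past the test were 0 with the mean of all probe sets and 0 without the arrays highest in Gh; the cause was not tested. Astrocyte and hindbrain markers past the test, an addition made after seeing the data as were the reruns for Aqp4, Igfbp2 and Magi1, were 2 with the mean of all probe sets and 0 to 4 with each array left out. Signs turned for Magi1 (-0.263 with the mean of its probe sets), Cldn11 (-0.048 without the arrays highest in Gh), Cldn19 (0.005 with centring, 0.04 without the arrays with a female signal, -0.179 to 0.074 with each array left out), Tjp1 (0.005 without the most 18S) and Jam3 (0.0075 there, -0.102 to 0.038 with each array left out).

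Replicate numbers occur in both groups, but nothing in the labels pairs them. Same-numbered arrays correlated at 0.25, 0.01, 0.30 and 0.34 in their deviations from group means, and since 1 of the 4 was under 0.1 the numbers were not taken as pairs. Of the control arrays, 3 of 4 correlated best with the daDREAM array of their own number, a hint from the data and not from the design. With the replicate number as a block, 672 genes passed in place of 364; the same 3 members passed, with 1 other claudin, 2 partners, 1 endothelial, 2 Schwann cell, 3 oligodendrocyte, 5 astrocyte and hindbrain and 2 meninges and perineurium markers, and Ocln's 1448873_at passed (adjusted p = 0.0197).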
